A study of Homo sapiens with 8 samples.

Results

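The protocadherin genes were taken as every protein-coding gene of the count table whose symbol starts with PCDH, which gave 57 of 32066 genes. Of these, 14 lie in the PCDHA cluster, 16 in the PCDHB cluster and 22 in the PCDHG cluster, and 5 are nonclustered (PCDH1, PCDH7, PCDH8, PCDH9 and PCDH19). They were measured by poly(A) RNA sequencing in 4 libraries of DU145 cells with exogenous SOX11 and 4 libraries of control DU145 cells, where SOX11 is a transcription factor of the developing nervous system. DU145 is an established epithelial prostate carcinoma line from a brain metastasis, and all 8 libraries came from the same line in the same serum-containing medium. The labels do not say how SOX11 was introduced, what the control cells carried or whether either group is 1 clone. They also do not say whether libraries 1 to 4 are separate cultures. The p-values therefore set the group difference against a spread between libraries that may be technical. Each gene of the 3 clusters is read on the plus strand of chromosome 5 (GRCh38), where the PCDHA members span 140794852 to 141012344, the PCDHB members 141051135 to 141249365 and the PCDHG members 141330571 to 141512981.

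Protocadherins are cadherin-related cell-surface proteins, best known from neurons, where the clustered isoforms bind the same isoform on a neighbouring cell and let a neuron tell its own branches from those of others. In the PCDHA and PCDHG clusters each gene has its own promoter and its own large first exon, which encodes the extracellular part and is spliced to constant exons shared by the cluster, whereas PCDHB genes consist of a single exon each. A cell uses few of the promoters, and their choice involves DNA methylation and the looping factors CTCF and cohesin. The nonclustered genes, scattered over several chromosomes, encode proteins that act in adhesion and cell sorting.

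Most clustered promoters are known to carry a conserved element with the core letters CGCT. Reference promoters are shown here because a different form of it was common in each cluster. Some genes with hardly any RNA carried it too. RefSeq promoters (GRCh38.p14) were matched by symbol for 51 of the 57 genes, and the 250 bases before each start were searched on both strands. Some RefSeq starts lay away from the GENCODE gene start, by 919 bases in PCDHA9, 774 in PCDHA11, 988 in PCDHB16 and 2476 in PCDHGA8. Positions of words are counted from the RefSeq start, and bases before other starts were not searched. The words searched were chosen after these sequences had been read, so their shares describe the sequences and were not tested. GGTGGCGCT was found in 12 of 14 PCDHB promoters, 16 to 84 bases before the start, in 0 other members and in 0.429% of 27305 promoters. ATGTCGCT was found in 8 of 12 PCDHA promoters, 44 to 85 bases before the start, in 0 other members and in 0.190% of all promoters. GCCGCTGT was found in 11 of 20 PCDHG promoters, 42 to 97 bases before the start, in 0 other members and in 1.19% of all promoters. The core CGCT, which lies inside each of these 3 words, stood in 48 of 51 member promoters and in 64.3% of all promoters. The exact words do not part the clusters fully. Some PCDHG promoters without GCCGCTGT, such as those of PCDHGA3, PCDHGA4 and PCDHGA5, held TGTCGCT, which also ends the PCDHA word. Capitals mark the 3 cluster words and, where present, the SOX-type words ACAAAG and ACAATG. Each sequence runs 5′ to 3′ on the plus strand. The PCDHB pair is PCDHB2, the most abundant member of its cluster (chr5:141094365-141094614), and PCDHB7, a hardly expressed one (chr5:141172394-141172643).
PCDHB2: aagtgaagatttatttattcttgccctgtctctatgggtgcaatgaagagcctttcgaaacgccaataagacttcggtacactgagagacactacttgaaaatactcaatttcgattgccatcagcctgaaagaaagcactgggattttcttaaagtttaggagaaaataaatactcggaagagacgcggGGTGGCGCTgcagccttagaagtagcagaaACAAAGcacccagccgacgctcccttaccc
PCDHB7: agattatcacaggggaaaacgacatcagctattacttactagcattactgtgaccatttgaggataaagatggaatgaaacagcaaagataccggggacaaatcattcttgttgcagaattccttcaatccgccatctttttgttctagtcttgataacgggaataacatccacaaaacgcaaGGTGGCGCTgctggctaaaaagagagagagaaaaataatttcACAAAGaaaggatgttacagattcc
The PCDHA pair is PCDHA6, the most abundant member of that cluster (chr5:140827710-140827959), and the hardly expressed PCDHA8 (chr5:140840937-140841186).
PCDHA6: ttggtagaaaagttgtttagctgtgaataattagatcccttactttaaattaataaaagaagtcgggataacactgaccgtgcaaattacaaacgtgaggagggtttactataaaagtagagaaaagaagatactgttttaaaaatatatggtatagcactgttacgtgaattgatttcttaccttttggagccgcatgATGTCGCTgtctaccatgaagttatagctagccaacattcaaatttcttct
PCDHA8: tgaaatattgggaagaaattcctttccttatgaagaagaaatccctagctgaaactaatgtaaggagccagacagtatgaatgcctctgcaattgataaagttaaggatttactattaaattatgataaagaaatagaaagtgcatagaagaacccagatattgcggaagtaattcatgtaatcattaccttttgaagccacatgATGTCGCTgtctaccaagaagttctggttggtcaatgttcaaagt
The PCDHG pair is made of the cluster's most abundant members, PCDHGB5 (chr5:141397697-141397946) and PCDHGC3 (chr5:141475716-141475965).
PCDHGB5: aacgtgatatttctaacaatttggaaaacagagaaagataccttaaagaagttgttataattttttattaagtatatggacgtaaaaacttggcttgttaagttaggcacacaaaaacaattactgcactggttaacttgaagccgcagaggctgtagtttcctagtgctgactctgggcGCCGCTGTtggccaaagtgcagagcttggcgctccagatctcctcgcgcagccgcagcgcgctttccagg
PCDHGC3: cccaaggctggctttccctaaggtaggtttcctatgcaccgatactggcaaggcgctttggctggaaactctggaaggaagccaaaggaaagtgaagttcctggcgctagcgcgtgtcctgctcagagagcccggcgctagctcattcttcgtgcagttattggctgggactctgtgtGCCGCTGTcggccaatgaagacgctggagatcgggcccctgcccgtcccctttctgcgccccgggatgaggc
The low members PCDHB7 and PCDHA8, chosen for this display after their values were seen, carried the same cluster word as the abundant members. Other low members lacked the exact word in the 250 bases searched. The PCDHB promoters without GGTGGCGCT were those of PCDHB1 and PCDHB8. The PCDHA promoters without ATGTCGCT were those of the low PCDHA9 and PCDHA11 and of the more abundant PCDHAC1 and PCDHAC2. Near forms stood in PCDHB1 (GGTGGTGCT), PCDHA9 (ATGTCACT) and PCDHA11 (GTGTCGCT). The PCDHB8 window ended soon after gatcctgtgaggac, which in PCDHB13 stands just before the word. A word in PCDHB8 beyond the window would have been missed. PCDHB7 had 11 counts over the SOX11 libraries and 7 over the control libraries, and PCDHA8 had 16 over the SOX11 and 5 over the control libraries. Their counterparts had 1073 over the SOX11 and 601 over the control libraries (PCDHB2), and 411 over the SOX11 and 310 over the control libraries (PCDHA6). ACAAAG was found in 10 of the 51 member promoters against 13.7% of all promoters, and ACAATG in 7 of 51 against 9.45%. PCDHB2 held ACAAAG 30 bases before its start, and PCDHB7 held it as well, at 25 bases. No RefSeq promoter was matched for PCDHA3, so its letters were not searched. PCDHA4 held ACAATG 210 bases before a RefSeq start, while PCDHA6, PCDHGB5 and PCDHGC3 held neither ACAAAG nor ACAATG. PCDHAC2 held neither of these nor any of the 3 cluster words. A match is a description of letters, not a binding site.

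Total counts were 15309037 to 16740516 in the SOX11 libraries and 14641250 to 18706095 in the control libraries. SOX11 had 303 to 317 counts in each SOX11 library and 0 in all 4 control libraries. A count filter kept 15665 of the 32066 genes (48.9%), of which 1615 were higher and 1515 lower in SOX11 libraries (edgeR quasi-likelihood test, adjusted p below 0.05). Of the epithelial markers 7 of 7 passed the filter, with a summed level of 1211 to 1221 CPM (counts scaled to a common library size) in SOX11 libraries and 1507 to 1769 in control libraries, and 4 of the 7 were called. The keratin genes KRT8 (log2 fold change -0.51), KRT18 (-0.42) and KRT19 (-0.68) fell and CLDN4 (0.99) rose, while EPCAM was at 47.7 CPM in SOX11 and 44.6 CPM in control libraries (edgeR adjusted p = 0.142). Markers of other cell types were mostly near 0. Below 1 CPM stood 6 of 7 fibroblast, 4 of 4 endothelial and 5 of 5 leukocyte markers. COL1A1 was the only fibroblast marker that passed the filter. It was called higher, at 6.02 CPM in SOX11 and 3.61 CPM in control libraries (log2 fold change 0.72, edgeR adjusted p = 0.000530). The fibroblast sum was 5.84 to 7.71 CPM in SOX11 libraries and 3.33 to 5.43 in control libraries. Of the neuronal markers 4 of 7 stood below 1 CPM, and their sum was 11.1 to 14.0 CPM in SOX11 libraries and 9.55 to 12.2 in control libraries. Of the glial markers 4 of 6 stood below 1 CPM, with a sum of 59.7 to 64.7 CPM in SOX11 libraries and 73.5 to 75.6 in control libraries, most of it MBP. The part of these shifts in the protocadherin values was not tested.

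In these cells a few clustered genes carried most of the protocadherin RNA. Levels of different genes were compared as CPM per kilobase of exon that belongs to no other gene on the same strand, since only 43.4% to 78.7% of the exon length of a PCDHA gene and 35.6% to 72.4% of that of a PCDHG gene belongs to it alone, and how reads in shared exons were counted is not given in the sources used here. On this scale the highest level was that of PCDHGC3, a C-type isoform found in many tissues outside the brain, at 4.94 in SOX11 and 5.17 in control libraries. By the mean over all libraries PCDHGB5 followed, at 4.70 in SOX11 and 4.00 in control libraries, and then PCDHB2, at 4.01 in SOX11 and 2.33 in control. Below them stood PCDHB5 (2.20 in SOX11, 1.83 in control), PCDHB6 (1.67 in SOX11, 1.77 in control) and PCDHA6 (1.94 in SOX11, 1.50 in control). The median over all 8 libraries was 0.250 for the PCDHA genes, 0.0955 for the PCDHB genes, 0.147 for the PCDHG genes and 0.00441 for the nonclustered ones. Within PCDHG, PCDHGC3 and PCDHGB5 took 69.0% of the cluster's counts. The 4 most abundant members took 63.4% of PCDHA counts, 86.1% of PCDHB counts and 83.2% of PCDHG counts. In PCDHA the genes after PCDHA6 were close to each other, with PCDHA12, PCDHAC1 and PCDHAC2 between 1.03 and 1.37 CPM per kilobase in either group. This scale depends on the annotated length. PCDHA4 and PCDHA12 had 3.13 and 3.07 CPM in SOX11 libraries. Per kilobase they stood at 0.296 and 1.19, with 10.6 and 2.59 kilobases of unshared exon. How much of the annotated exon these cells used was not tested.

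**Figure D1:**
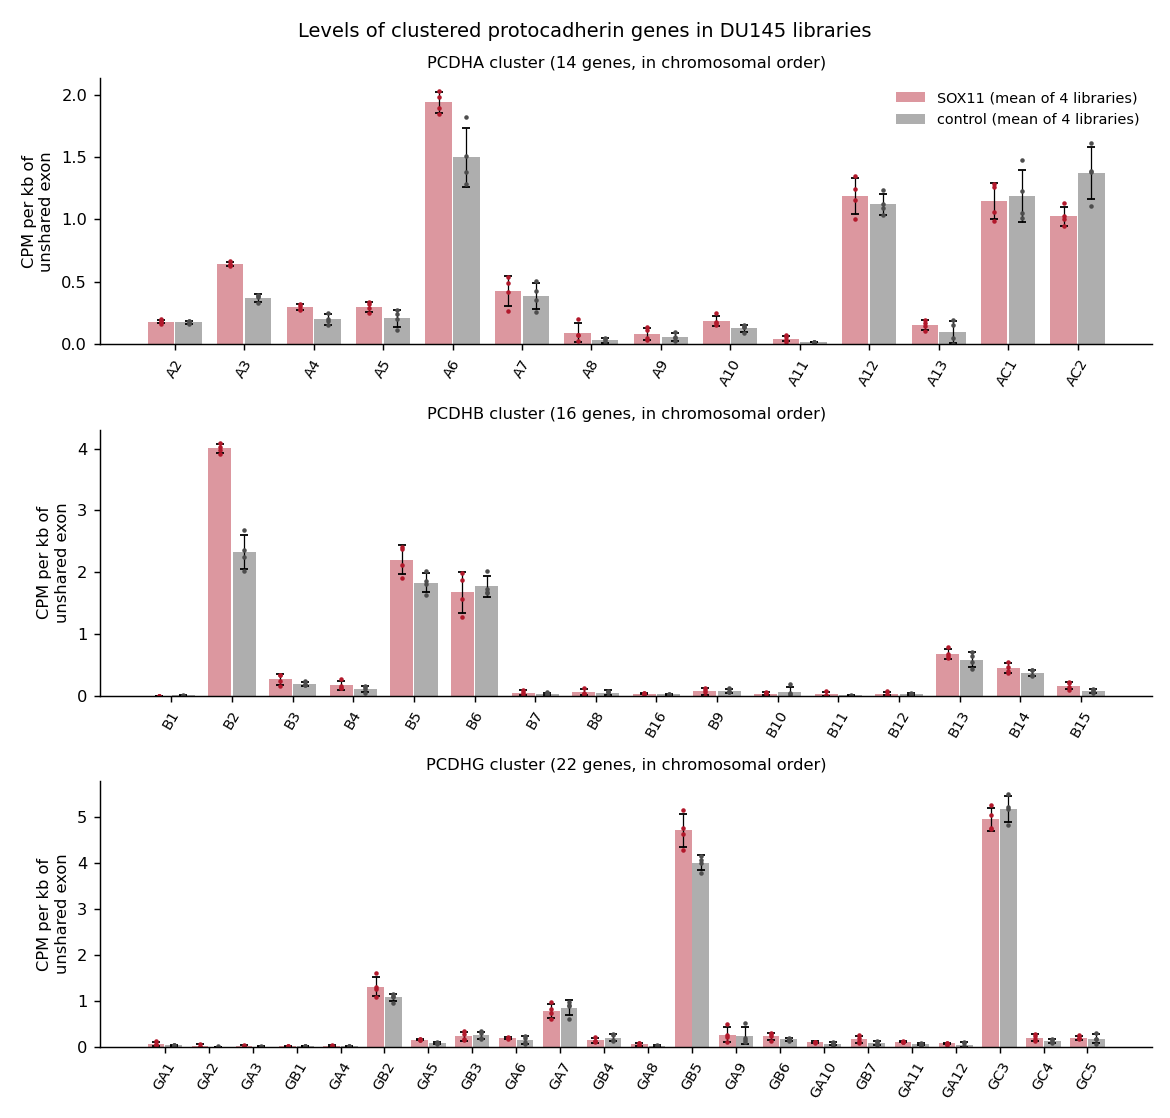
Level of each clustered protocadherin gene in SOX11 (red) and control (grey) libraries, in CPM per kilobase of unshared exon, in chromosomal order and with a separate vertical scale for each cluster. Bars are means of 4 libraries, error bars the SD and points the libraries. Few genes stand above 1: PCDHA6, PCDHA12, PCDHAC1 and PCDHAC2, then PCDHB2, PCDHB5 and PCDHB6, then PCDHGB2, PCDHGB5 and PCDHGC3.

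The comparison asks how the protocadherin genes differed when SOX11 was expressed. PCDHB2 and 3 genes near the start of the PCDHA cluster (PCDHA3, PCDHA4 and PCDHA6) rose, by 1.29-fold to 1.73-fold, and PCDHAC2 at the far end of the PCDHA cluster fell to 0.750 times its control level. No PCDHG gene passed the test, and the 5 nonclustered genes were below the count filter and not called without it. Of the 57 genes, 22 passed the filter, and 5 of these 22 were called where 20.0% of all tested genes were. The 4 higher calls stand against 10.3% of tested genes called higher and the 1 lower call against 9.67% called lower. The share of members called in either direction was thus near that of all tested genes. The median log2 fold change of the 22 was 0.27 (range -0.41 to 0.79), against 0.00 over all tested genes, and 16 of the 22 were positive, against 50.3% of tested genes. An unadjusted p under 0.05 was reached by 8 of the 22, against 31.5% of tested genes. Of the 22, 5 passed the filter with fewer than 4 control libraries at or above its 0.630 CPM (PCDHA5, PCDHB3, PCDHGB3, PCDHGA6 and PCDHGB6), and none of these was called. In bulk RNA, fewer cells that use a gene and less RNA per cell cannot be told apart.

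**Figure D2:**
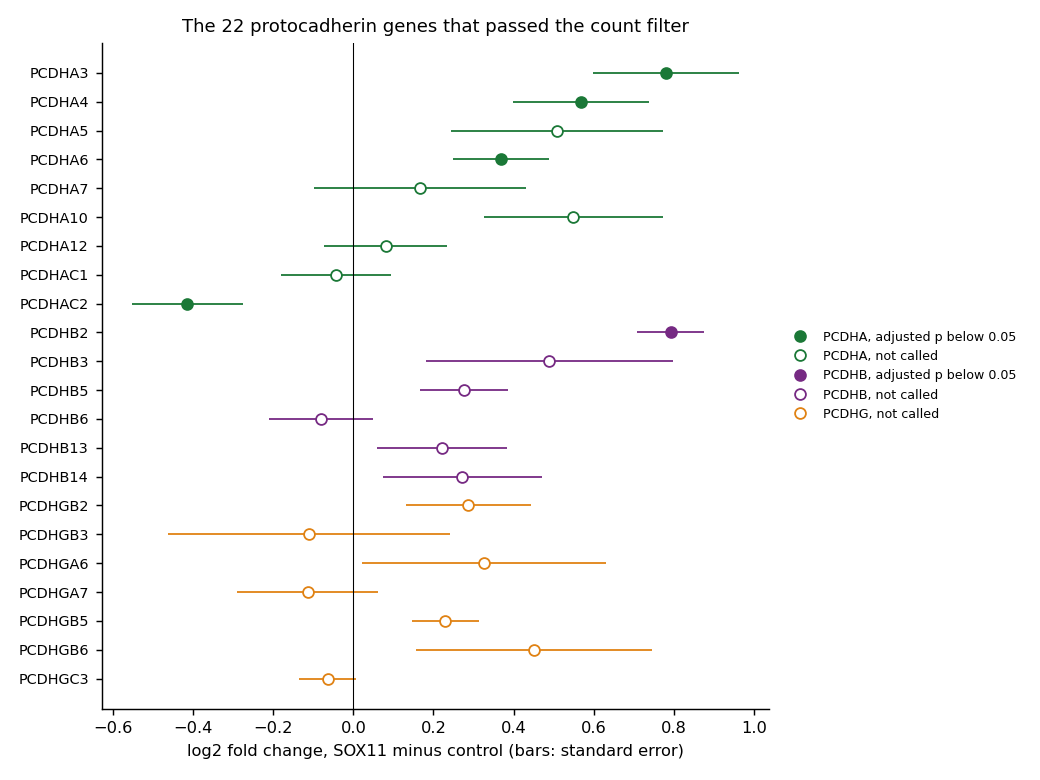
Log2 fold change (SOX11 minus control) of the 22 protocadherin genes that passed the filter, by cluster and chromosomal order, with bars for the standard error. Filled points are the 5 genes with an edgeR adjusted p below 0.05. They run from -0.41 for PCDHAC2 to 0.79 for PCDHB2.

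PCDHB2 (ENSG00000112852, chromosome 5, 141094578 to 141098703), a single-exon member of the PCDHB cluster, had the clearest difference. Its level was 16.2, 16.6, 16.9 and 16.4 CPM in the 4 SOX11 libraries, against 9.26, 8.33, 9.75 and 11.1 CPM in the 4 control libraries. Every SOX11 library stood above every control library, and the SOX11 libraries differed little among themselves. The means were 16.5 ± 0.316 CPM in SOX11 and 9.61 ± 1.15 CPM in control (SD, n = 4 each), a log2 fold change of 0.79 ± 0.0840 (SE, edgeR adjusted p = 2.39e-08). The call held under each of the 16 alternatives tried, with log2 fold changes of 0.72 to 0.86. Of the 50-base windows of its exon, 20.2% also occur in another protocadherin gene, and of the 100-base windows 11.3%. A read no longer than such a window cannot be placed there with certainty. A gene annotated on the opposite strand overlaps 620 bases of it and was not analysed here.

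None of the other 5 PCDHB genes that passed the filter was called. PCDHB5, second in the cluster by level, had 6.48, 8.22, 8.09 and 7.23 CPM in SOX11 libraries, against 6.32, 5.57, 6.87 and 6.17 CPM in control libraries. The groups overlapped at SOX11 library 1, and the log2 fold change was 0.28 ± 0.110 (edgeR adjusted p = 0.0769, and 0.0414 without that library). PCDHB6 had 4.13, 5.09, 6.51 and 6.12 CPM in SOX11 libraries, against 5.43, 5.63, 6.59 and 5.48 CPM in control libraries. The SOX11 libraries spread more widely than the control libraries and overlapped them, with a log2 fold change of -0.08 ± 0.130 (edgeR adjusted p = 0.729). PCDHB13 averaged 3.43 ± 0.419 CPM in SOX11 and 2.94 ± 0.609 CPM in control (log2 fold change 0.22, edgeR adjusted p = 0.375). PCDHB14 averaged 2.06 ± 0.364 CPM in SOX11 and 1.71 ± 0.248 CPM in control (0.27, adjusted p = 0.376), and PCDHB3 0.885 ± 0.283 CPM in SOX11 and 0.634 ± 0.0924 CPM in control (0.49, adjusted p = 0.285). PCDHB2 made up 43.4% ± 1.98 of the cluster's counts in SOX11 libraries and 33.6% ± 3.34 in control libraries, while PCDHB6 made up 14.2% ± 2.01 in SOX11 and 20.2% ± 1.22 in control libraries.

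PCDHA3, PCDHA4 and PCDHA6 are alternate first exons near the start of the PCDHA cluster, each joined to the same constant exons. PCDHA3 (ENSG00000255408, start 140801028) had 2.53, 2.54, 2.68 and 2.61 CPM in SOX11 libraries, against 1.60, 1.57, 1.51 and 1.32 CPM in control libraries. The libraries were tight within each group and the groups stood apart, with 41, 43, 44 and 40 counts in SOX11 and 25, 29, 22 and 19 counts in control libraries. Its log2 fold change was 0.78 ± 0.182 (edgeR adjusted p = 0.00215), and the call held under each of the 16 alternatives, at 0.73 to 0.81. An antisense gene, ENSG00000279726, singled out after its values were seen, overlaps 433 bases of the exons of PCDHA3 and rose alongside it, at 2.83 ± 0.511 CPM in SOX11 and 1.60 ± 0.219 CPM in control libraries (log2 fold change 0.81 ± 0.188, edgeR adjusted p = 0.00204). The libraries were stranded, but the strand setting of the counting is not given in the sources used here. Reads of the 2 genes within these 433 bases therefore cannot be told apart. PCDHA3 has 4032 exon bases that it shares with no other gene on its strand. How many of its reads fell in the overlap was not tested.

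PCDHA4 (ENSG00000204967, start 140806929) had 3.02, 3.25, 2.86 and 3.39 CPM in SOX11 libraries, against 2.68, 1.95, 1.65 and 2.15 CPM in control libraries. The lowest SOX11 library lay just above the highest control library, and the log2 fold change was 0.57 ± 0.170 (edgeR adjusted p = 0.0160). DESeq2 called 2 of the members, PCDHB2 and PCDHA3, where it called 16.7% of genes. The PCDHA4 call was lost with it (adjusted p = 0.0550), without control library 2 (0.0538) and without control library 3 (0.0645). PCDHA6 (ENSG00000081842, start 140827958) had 6.48, 6.63, 6.02 and 6.19 CPM in SOX11 libraries, against 5.94, 4.92, 4.19 and 4.51 CPM in control libraries. Control library 1 nearly reached the lowest SOX11 library, and the log2 fold change was 0.37 ± 0.120 (edgeR adjusted p = 0.0278). The PCDHA6 call was lost with DESeq2 (adjusted p = 0.0784) and when any of 5 libraries was left out (SOX11 1, SOX11 2, control 2, control 3 or control 4, adjusted p = 0.0598 to 0.102). In PCDHA6, 25.4% of 50-base windows also occur in another protocadherin gene, against 1.53% in PCDHA4 and 6.23% in PCDHA3. With 100-base windows the shares were 9.15% in PCDHA6, 0% in PCDHA4 and 0.585% in PCDHA3.

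PCDHAC2 (ENSG00000243232, start 140966235) is the last of the PCDHA first exons and a C-type isoform, needed in mice for the even spacing of serotonergic axons. It was the only protocadherin gene called lower. Its level was 3.27, 3.55, 3.89 and 3.45 CPM in SOX11 libraries, against 3.83, 4.76, 5.56 and 4.78 CPM in control libraries. The groups overlapped, since SOX11 library 3 stood above control library 1, and the log2 fold change was -0.41 ± 0.138 (edgeR adjusted p = 0.0316). The call was lost with DESeq2 (adjusted p = 0.0856) and when any library but SOX11 3 or control 1 was left out (adjusted p = 0.0528 to 0.122). None of its 50-base windows occurs in another protocadherin gene, and a gene on the opposite strand that overlaps 256 of its bases was not analysed here. Its share of PCDHA counts was 12.0% ± 0.647 in SOX11 libraries and 18.7% ± 3.97 in control libraries.

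**Figure D3:**
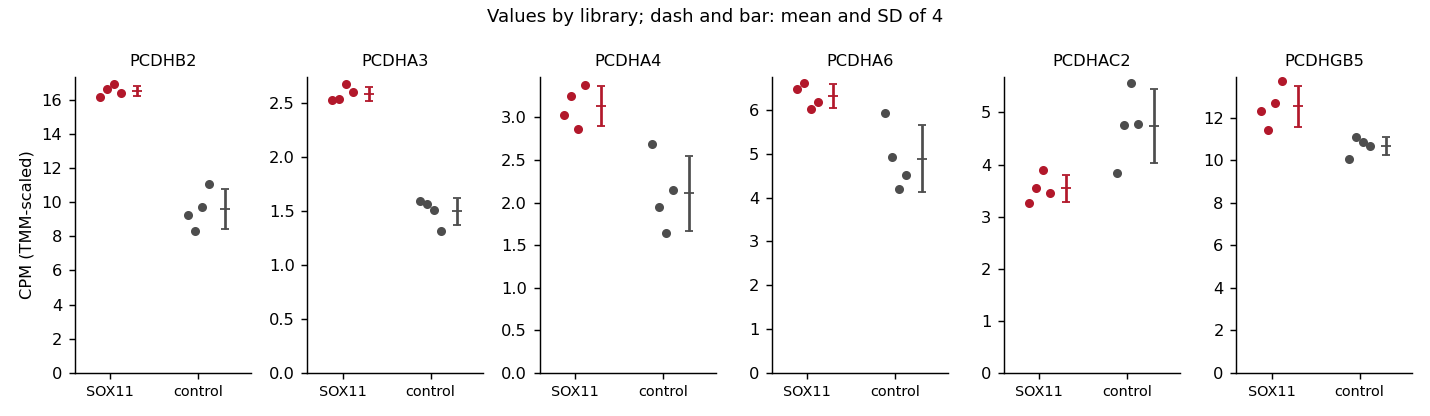
TMM-scaled CPM of the 5 called protocadherin genes and PCDHGB5 in each SOX11 (red) and control (grey) library, with the mean and SD of 4 beside the points. PCDHB2 lies between 16.2 and 16.9 CPM in SOX11 libraries and between 8.33 and 11.1 CPM in control libraries, and only PCDHAC2 overlaps between the groups.

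The other PCDHA genes above the filter were not called. PCDHA10, which lies beyond PCDHA6, had 1.54, 1.77, 2.49 and 1.69 CPM in SOX11 libraries, against 1.34, 1.35, 0.893 and 1.53 CPM in control libraries. The groups did not overlap, but the highest control library lay just under the lowest SOX11 library, and the log2 fold change was 0.55 ± 0.223 (edgeR adjusted p = 0.0815). PCDHA5, which shares 590 bases with the same antisense gene as PCDHA3, averaged 1.27 ± 0.170 CPM in SOX11 and 0.884 ± 0.293 CPM in control (0.51, adjusted p = 0.186). PCDHA7 averaged 1.25 ± 0.354 CPM in SOX11 and 1.13 ± 0.304 CPM in control (0.17, adjusted p = 0.722). Among the more abundant genes, PCDHA12 averaged 3.07 ± 0.374 CPM in SOX11 and 2.90 ± 0.216 CPM in control (0.08, adjusted p = 0.774). PCDHAC1, the other C-type isoform of the cluster, averaged 4.68 ± 0.595 CPM in SOX11 and 4.85 ± 0.859 CPM in control (-0.04, adjusted p = 0.871). Over the tested PCDHA genes, 7 log2 fold changes were positive and 2 were negative, those of the C-type genes PCDHAC1 and PCDHAC2.

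In the PCDHG cluster, PCDHGB5 (ENSG00000276547, start 141397987) came closest to the threshold. It had 12.3, 11.4, 12.7 and 13.7 CPM in SOX11 libraries, against 10.1, 11.1, 10.9 and 10.7 CPM in control libraries. The groups did not overlap, and the log2 fold change was 0.23 ± 0.0837 (edgeR adjusted p = 0.0502). It was called with upper quartile scaling (adjusted p = 0.0432), with a stricter filter (0.0474) and without SOX11 library 2 (0.0265). PCDHGC3 (ENSG00000240184, start 141475947), the most abundant member of the cluster, had 16.4, 15.4, 17.1 and 15.4 CPM in SOX11 libraries, against 15.7, 16.8, 17.9 and 16.9 CPM in control libraries. The groups overlapped over most of their range, with a log2 fold change of -0.06 ± 0.0713 (edgeR adjusted p = 0.595). Its share of PCDHG counts was 37.9% ± 1.67 in SOX11 libraries and 43.2% ± 1.30 in control libraries.

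The remaining tested PCDHG genes overlapped between the groups. PCDHGB2 averaged 3.39 ± 0.554 CPM in SOX11 and 2.78 ± 0.200 CPM in control libraries (log2 fold change 0.29, edgeR adjusted p = 0.207). PCDHGA7 averaged 2.57 ± 0.498 CPM in SOX11 and 2.77 ± 0.518 CPM in control (-0.11, adjusted p = 0.717). PCDHGA6 averaged 1.11 ± 0.135 CPM in SOX11 and 0.860 ± 0.477 CPM in control (0.33, adjusted p = 0.511), with control values of 0.347 to 1.35 CPM around the tight SOX11 values. PCDHGB6 averaged 1.07 ± 0.372 CPM in SOX11 and 0.772 ± 0.149 CPM in control (0.45, adjusted p = 0.308), and PCDHGB3 0.600 ± 0.245 CPM in SOX11 and 0.646 ± 0.215 CPM in control (-0.11, adjusted p = 0.870).

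Summed over all members, each cluster was higher in every SOX11 library than in any control library, but in PCDHB this did not hold without PCDHB2. The 14 PCDHA genes summed to 28.7, 30.99, 30.6 and 28.1 CPM in SOX11 libraries, against 27.5, 25.1, 23.6 and 26.0 CPM in control libraries, a ratio of means of 1.16. The 16 PCDHB genes summed to 35.5, 37.4, 41.1 and 38.7 CPM in SOX11 libraries, against 28.0, 26.8, 30.6 and 28.8 CPM in control libraries, a ratio of 1.34. Without PCDHB2 the PCDHB sums were 21.7 ± 2.09 CPM in SOX11 and 18.96 ± 1.35 CPM in control, a ratio of 1.14, and the groups overlapped. The 22 PCDHG genes summed to 42.9, 41.1, 42.7 and 42.7 CPM in SOX11 libraries, against 36.7, 40.3, 40.9 and 37.8 CPM in control libraries, a ratio of 1.09. Without PCDHGC3, the most abundant member, the PCDHG means were 26.3 ± 0.823 CPM in SOX11 and 22.1 ± 1.36 CPM in control, a ratio of 1.19. Without PCDHA6 the PCDHA sums were 23.3 ± 1.39 CPM in SOX11 and 20.6 ± 1.08 CPM in control, a ratio of 1.13. These sums are descriptions with no test.

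**Figure D4:**
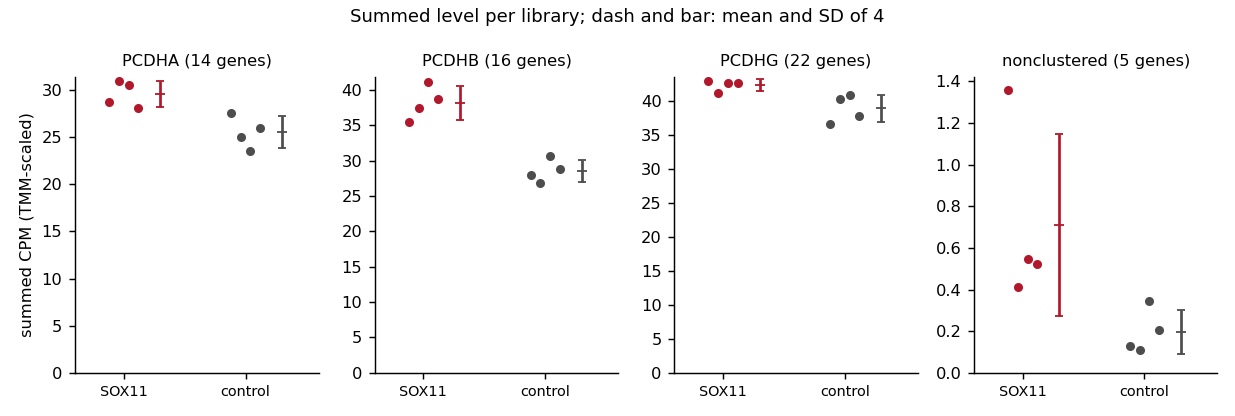
TMM-scaled CPM summed over the members of each protocadherin cluster and over the 5 nonclustered genes, in each SOX11 (red) and control (grey) library, with the mean and SD of 4. The vertical scales differ. The widest gap between the clustered groups is that of PCDHB, at 35.5 to 41.1 CPM in SOX11 and 26.8 to 30.6 CPM in control libraries, and 1 SOX11 library stands far above the rest for the nonclustered genes.

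The 35 members below the filter had at most 45 counts over the SOX11 libraries and 38 over the control libraries, and a mean of at most 0.689 CPM in a group. Over all 57 members, the mean CPM was higher in SOX11 libraries for 45 and lower for 12, against 52.6% of all genes in the table being higher. For 10 members every SOX11 library stood above every control library, and for 0 every one stood below, against 5.98% and 5.59% of all genes. Among the 22 tested members these numbers were 6 and 0, against 10.6% and 10.4% of tested genes. Of those 10, 4 were below the filter: PCDHGA5, PCDHGA11, PCDH9 and PCDH19. PCDHGA5 had 9, 10, 9 and 9 counts in SOX11 libraries, against 6, 4, 5 and 4 in control libraries. PCDHGA11 had 7, 6, 7 and 6 counts in SOX11 libraries, against 3, 6, 2 and 3 in control libraries, where the scaling to CPM parted the libraries at 6 counts. With no filter, the test on all genes called the same 5 members and none of the 35 low ones, whose adjusted p ran from 0.0504 (PCDH19) to 0.991, with 9.70% of genes called.

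Among the other low members with the most counts, all overlapped between the groups. PCDHA9 had 40 counts in all over the SOX11 libraries and 26 over the control libraries, PCDHA2 had 31 in SOX11 and 29 in control, and PCDHA13 had 25 in SOX11 and 16 in control. In PCDHB, PCDHB4 had 42 counts in SOX11 and 27 in control, PCDHB15 had 38 in SOX11 and 17 in control, and PCDHB9 had 18 in SOX11 and 20 in control. In PCDHG, PCDHGA9 had 45 counts in SOX11 and 38 in control. The C-type gene PCDHGC4 had 37 counts in SOX11 and 23 in control, and PCDHGC5 had 37 in SOX11 and 32 in control. The fewest counts of a clustered gene were those of PCDHB1, with 0 counts over the SOX11 libraries and 1 over the control libraries.

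The nonclustered genes were near the limit of detection. PCDH1, an adhesion protein known from airway epithelium, had 12, 3, 5 and 4 counts in SOX11 libraries, against 2, 2, 5 and 3 counts in control libraries. The other 4 had 0 counts in all control libraries, where the 3-count floor over the group allows up to 0.0470 CPM. PCDH19, known for an X-linked epilepsy, had 2, 1, 3 and 2 counts in SOX11 libraries, at 2.64 times that floor. PCDH9 had 1, 1, 1 and 2 counts there, at 1.65 times the floor. PCDH7 had 7 counts, all in SOX11 library 1, at 2.31 times the floor but with 0 counts in the other SOX11 libraries. These ratios take the few SOX11 counts as they are, without their counting error, so they are not lower bounds. PCDH8 had 2 counts over the SOX11 libraries, below the floor. The floors cover counting error in the control libraries only.

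Genes around the clusters were set beside the members, to see whether the region moved as a whole. Of the 62 other genes in the table within 1 megabase, 34 were tested, 6 were higher and 0 lower (17.6%, against 20.0% of all tested genes), with a median log2 fold change of 0.07. Distances before the clusters are counted from PCDHA2, the first cluster member analysed here. HBEGF, which encodes a heparin-binding growth factor of the EGF family and ends 448 kb before the clusters, rose to 36.6 ± 3.19 CPM in SOX11, against 21.9 ± 2.13 CPM in control (log2 fold change 0.74, edgeR adjusted p = 3.77e-09). GNPDA1, an enzyme of amino sugar breakdown 479 kb beyond the clusters, rose by 0.28 on the log2 scale (adjusted p = 0.000278), and PFDN1, a prefoldin subunit, by 0.21 (adjusted p = 0.00130). The other higher genes were SLC35A4 (0.12), HARS2 (0.17), which ends 95.5 kb before the clusters, and the antisense gene ENSG00000279726 named above, which overlaps the PCDHA cluster. Of the genes that were not called, 3 near or between the clusters are given for their place. TAF7, between PCDHB and PCDHG, had a log2 fold change of 0.05 (adjusted p = 0.411), DIAPH1, 2.04 kb beyond the last PCDHG exon, -0.02 (0.724), and ZMAT2, 88.2 kb before PCDHA2, 0.08 (0.227).

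**Figure D5:**
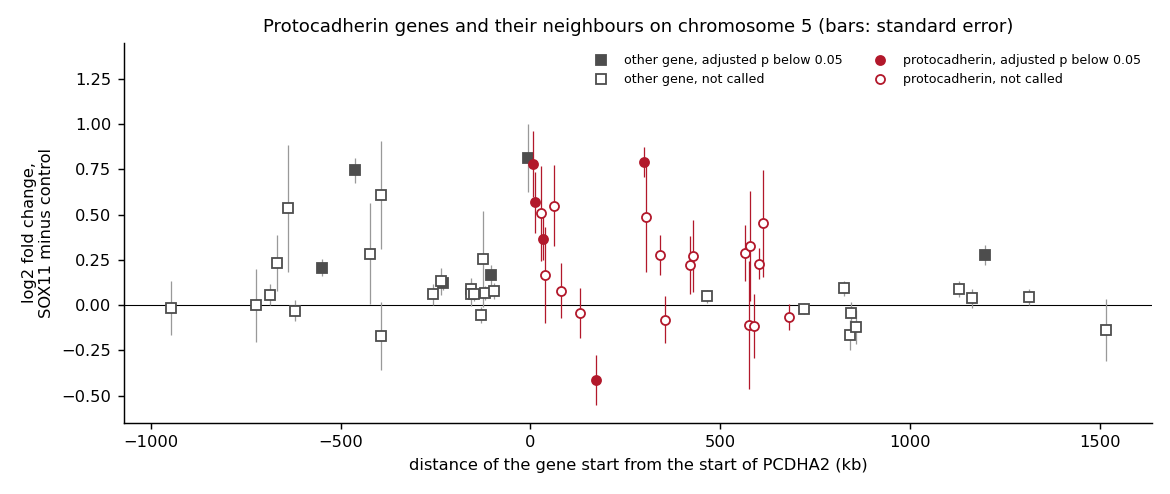
Log2 fold change (SOX11 minus control, bars for the standard error) of the tested clustered protocadherin genes (red circles) and of the other tested genes within 1 megabase of the clusters (grey squares), by distance of the gene start from the start of PCDHA2. Filled symbols have an edgeR adjusted p below 0.05. Called protocadherin genes stand next to uncalled ones, with PCDHA3 at 0.78 and PCDHAC2 at -0.41 in the same cluster.

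Genes that may act on the cluster promoters were examined from a list of CTCF, cohesin, DNA methylation and silencing factors. The list was chosen with earlier results of these data known, and whether each gene acts on these promoters in DU145 cells was not tested. Of 28 tested, 5 were higher and 0 lower (17.9%, against 20.0% of all tested genes), with a median log2 fold change of 0.04. DNMT3A, a DNA methyltransferase, rose to 56.9 ± 2.11 CPM in SOX11, against 40.2 ± 2.03 CPM in control (log2 fold change 0.50 ± 0.0484, edgeR adjusted p = 4.26e-09). TET3 (0.25, adjusted p = 0.000355) and TET2 (0.19, adjusted p = 0.0104), which oxidise methylated cytosine, rose as well. With DESeq2, or without SOX11 library 1, SOX11 library 3, control library 3 or control library 4, 3 of the 28 were called.

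Clustered protocadherins signal through kinases, the WAVE actin-regulating complex and gamma-secretase cleavage. Of 31 tested partner genes, 9 were higher and 1 lower (32.3%, against 20.0% of all tested genes), with a median log2 fold change of 0.04. MARCKS, an actin-binding substrate of protein kinase C, rose to 6.24 ± 0.631 CPM in SOX11, against 3.29 ± 0.521 CPM in control (log2 fold change 0.92 ± 0.133, edgeR adjusted p = 5.30e-06). CYFIP2, a WAVE complex subunit (0.49, adjusted p = 0.000581), and PRKCA, a protein kinase C isoform (0.22, adjusted p = 7.13e-05), rose, and PDCD10 (-0.14, adjusted p = 0.0222) fell. Among other nonclassical cadherin genes and their modifiers, 11 of 19 were tested and 6 were higher and 1 lower (63.6%, against the same 20.0%), with a median of 0.19. This list and that of the partner genes were chosen with earlier results of these data known. Their shares are thus descriptions and were not tested. The giant cadherin gene FAT4 rose to 31.6 ± 2.26 CPM in SOX11, against 19.2 ± 0.441 CPM in control (log2 fold change 0.72 ± 0.0619, edgeR adjusted p = 3.68e-10). FAT1 (0.21) and CELSR3 (0.24), a cadherin of planar cell polarity, rose too, and FJX1 (-0.22), a relative of the kinase that modifies FAT cadherins, fell.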

How the data were processed

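RNA was measured in 8 libraries, 4 of DU145 cells with exogenous SOX11 and 4 of control cells. The libraries were stranded TruSeq mRNA libraries, per the labels' protocols. The submitters' processing notes list the build GRCh38 with STAR 2.7.0e, cutadapt and FastQC, without their order. The counting program, how it used strand, and its gene annotation were not stated. The deposited table holds raw counts for Ensembl genes as the authors made them, unscaled. Symbols were found for 32053 of 32066 genes, and positions and exons came from GENCODE 29 on GRCh38.

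Low genes were removed by filterByExpr with a minimum count of 10. The 15665 remaining genes were scaled by TMM and compared by the quasi-likelihood test of edgeR 4.0.16 (R 4.3.3), with Benjamini-Hochberg adjustment over all of them and a call at an adjusted p below 0.05. CPM are TMM-scaled, as mean ± SD over 4 libraries, and counting limits their precision for low genes. Every protocadherin that passed the filter is named, with the 3 highest of each group below it and up to 3 called genes per direction from each further list. Members and lists were chosen with earlier results of these data known. Alternatives were DESeq2 1.42.0, limma-voom (limma 3.58.1), other scalings and filters, a replicate block and each library left out. The edgeR fit alone was tried on counts simulated from its own fitted means and dispersions, and the outcome is not given here. No pair of libraries agreed within sampling noise (chi-square per degree of freedom 1.43 to 3.25). GENCODE 29 has 66 protein-coding genes with a PCDH symbol, and those not among the 57 found in the count table are not analysed here.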

Additional observations from a re-analysis of the deposited data

Results flagged for a closer look

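In 4 of 75 groups of 4 libraries examined, 1 library stood apart from the other 3 by Dixon's gap criterion at the 95% level, where chance gives about 1 in 20. PCDH7 was at 0.432 CPM in SOX11 library 1 and at 0 in the other SOX11 libraries. The sum of the 5 nonclustered genes was 1.36 CPM in SOX11 library 1, against 0.414 to 0.547 CPM in the other SOX11 libraries. The summed PCDHG level was 41.1 CPM in SOX11 library 2, against 42.7 to 42.9 CPM in the others. PCDHB6 was at 6.59 CPM in control library 3, against 5.43 to 5.63 CPM in the other control libraries.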

How the results depend on the processing

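PCDHB2 and PCDHA3 kept their calls under all 16 alternatives. The number of protocadherin genes called was 5, with 2 under DESeq2 and 2 to 5 with 1 library left out, and for PCDHA 4, with 1 under DESeq2 and 1 to 4 with 1 library left out. With a library left out it was 1 to 2 for PCDHB and 0 to 1 for PCDHG, where upper quartile scaling and the stricter filter gave 1 each (PCDHGB5). Of the genes listed as possible cluster regulators 3 were called under DESeq2 and 3 to 7 with a library left out. Across all genes 3130 were called, and 2407 to 3129 under the alternatives. Signs turned only in uncalled genes, on leaving out 1 library, with ranges of -0.00604 to 0.348 for PCDHA7, -0.108 to 0.0771 for PCDHAC1, -0.178 to 0.0296 for PCDHB6 and -0.371 to 0.0676 for PCDHGB3 on the log2 scale. The cause was not tested. Without the most abundant member the summed CPM was 23.3 in SOX11 and 20.6 in control for PCDHA, 21.7 in SOX11 and 18.96 in control for PCDHB, 26.3 in SOX11 and 22.1 in control for PCDHG, and 0.339 in SOX11 and 0 in control for the nonclustered genes. Correlations of same-numbered libraries ran from -0.0683 to 0.109, and 3 of 8 libraries correlated best with their own number. Correlations this weak cannot settle whether the numbers pair the libraries, which the labels do not say. With the replicate block the same 5 protocadherin genes were called, and 2899 genes in all. Depth limits the 35 members below the filter, none of which was called when tested without it.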
